A study of Mus musculus with 4 samples.

Results

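Non-cycling undifferentiated tumour cells are here the cells of a mouse medulloblastoma with no transcript read of 9 proliferation genes and at most 1 of 5 neuronal genes. They were chosen from single-cell RNA counts by a fixed set of limits, and 199 cells met them among the 5670 cell barcodes of the study. A barcode had to hold at least 500 detected genes, at most 10% mitochondrial UMIs (unique molecular identifiers, 1 per captured RNA molecule) and at least 2000 UMIs, and fewer than 3 UMIs summed over the 7 glial and myeloid genes Lhfpl3, Olig1, Aqp4, Aldoc, Slc25a18, Tyrobp and C1qb, which left 2010 cells. Of these, 482 held 0 UMIs of the 9 cycle genes Mki67, Top2a, Cdk1, Ccna2, Ube2c, Cenpf, Tk1, Hist1h1b and Hist1h2ap. The 199 chosen cells also held at most 1 UMI summed over the 5 neuronal genes Cntn2, Stmn2, Plppr1, Gap43 and Rab3a. They numbered 96, 50, 15 and 38 in mice 1 to 4.

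The tumours came from 4 littermate Atoh1-cre:SmoM2 mice at postnatal day 20, 1 library per mouse, and every mouse carried both alleles. Atoh1-cre switches on SmoM2, a constitutively active Smoothened, in cerebellar granule neuron precursors, and the mice develop medulloblastoma of the Sonic hedgehog (SHH) subgroup. No untreated or wild-type tissue was measured, so all comparisons are between classes of cells within the same tumours. The chosen cells were set first against 364 cycling cells, which held at least 3 UMIs of the 9 cycle genes under the same quality, depth, lineage and neuronal limits (122, 68, 78 and 96 in mice 1 to 4). They were then set against 203 differentiating cells, which held 0 cycle UMIs and at least 3 UMIs of the 5 neuronal genes (74, 57, 11 and 61).

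In the developing cerebellum, SHH secreted by Purkinje cells keeps granule neuron precursors dividing in the outer layer: Smoothened activity turns Gli factors into activators, which raise Ptch1, Gli1, Mycn and the D-type cyclins. Precursors that leave the cycle switch on Neurod1 and neuronal cytoskeletal genes and migrate inward. In SHH medulloblastoma a part of the tumour cells is out of the cycle at any time, and slowly cycling, Sox2-positive cells have been described in mouse models as a reserve that can resume growth. A cell with no cycle transcripts in a snapshot may be in early G1 or may have left the cycle, and these states cannot be told apart from the selection genes alone.

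The deposited libraries hold 27998 genes and between 1679285 UMIs (mouse 3) and 3801197 UMIs (mouse 4). Mouse 3 gave the fewest chosen cells and the shallowest ones. Levels below are UMIs summed per mouse and class and scaled to the class total of that mouse as CPM, and tests are edgeR's quasi-likelihood test on those sums with the mouse as a block and Benjamini-Hochberg adjustment over all genes tested at a threshold of 0.05. A fold change is the chosen cells over the other class, given as log2 ± standard error. Of the 2010 cells that passed the quality, depth and lineage limits, the chosen cells made up 13.7%, 10.6%, 6.58% and 6.24% in mice 1 to 4, with a mean of 9.28% ± 3.55 (SD, n = 4). The viability sort named in the labels' protocols and the depth minimum can set such shares.

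The label was checked against Ptch1 (the hedgehog receptor and a Gli target), Barhl1 (a homeobox factor of the granule lineage) and Zic1 (a zinc finger factor of cerebellar precursors). At least 1 UMI of these genes was found in 188 of 199 chosen cells (94.5%, exact 95% interval 90.3 to 97.2%, median depth 2557 UMIs) and in 342 of 364 cycling cells (94.0%, median depth 3290.5 UMIs). After every cell was thinned to 1000 UMIs, the share was 73.4% in the chosen cells and 62.4% in cycling cells, against 13.8% in 29 myeloid-marked cells (4 cells, interval 3.89 to 31.7%, median depth 1521 UMIs), which should lack the genes. Intervals and floors cover counting error only. Pooled over mice, the 3 genes summed to 12.3 UMIs per 10000 in the chosen cells, 10.7 in cycling cells and 14.7 in differentiating cells. The check therefore bears on the lineage and not on the lack of differentiation. Genes of mature granule neurons were close to absent: 6 of 10, among them Gabra6 and Slc17a7, had 0 UMIs in the chosen cells, and the list as a whole ranged from 0.0785 to 0.673 UMIs per 10000 over mice, against 0.344 to 0.532 in cycling cells.

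The limits let a few cells of other kinds through. A total of 3 chosen cells, 1 of mouse 1 and 2 of mouse 4, held 325, 729 and 1185 UMIs of Ttr (transthyretin, the leading transcript of choroid plexus epithelium), which was 8.98%, 16.6% and 20.5% of their UMIs, with 0 to 2 UMIs of the 15 granule lineage genes. A chosen cell of mouse 1 held 74 UMIs of oligodendrocyte lineage genes. In all, 6 chosen cells, 5 cycling cells and 4 differentiating cells held at least 10 UMIs of a marker list of another cell type. The 6 chosen cells held 4.54% of the UMIs of their class. Astroglial genes summed to 6.07 to 8.92 UMIs per 10000 in the chosen cells, against 2.95 to 6.95 in cycling cells, and none of the 12 markers was at 0 in the chosen cells. Oligodendrocyte lineage genes summed to 1.79 to 5.89 UMIs per 10000, against 1.95 to 3.86 in cycling cells, with Mog at 0 in the chosen cells. Myeloid markers were at 0 for 9 of 12 genes, including Csf1r and Cx3cr1, vascular markers for 8 of 12, including Cldn5 and Pdgfrb, and markers of other neurons for 10 of 12, including Gad1 and Eomes, and each of these lists stayed below 0.4 UMIs per 10000 in every mouse. Red cell genes (Hbb-bs, Hbb-bt, Hba-a1 and Hba-a2) had 0 UMIs in the chosen cells. Results that rest on the 6 cells are given with and without them. Across libraries, 20 barcode sequences occurred more than once, and none belonged to a chosen cell.

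Genes of S phase and of G2 and mitosis outside the 9 selection genes were read as a description, since they move with the genes that chose the classes. Over 124 such genes, and with each cell thinned to 2000 UMIs, the chosen cells held a median of 17 UMIs, cycling cells 53.5 and differentiating cells 14. The middle of the distribution was broad: the 10th and 90th percentiles were 8 and 29.2 UMIs in the chosen cells, against 29 and 75 in cycling cells. A total of 23 of 199 chosen cells (11.6%) reached the 10th percentile of the cycling cells, and the highest held 52 UMIs. Per mouse the median was 17, 15.5, 25 and 14.5 UMIs in the chosen cells of mice 1 to 4, against 55.5, 47, 58.5 and 51 in cycling cells, so mouse 3 stood above the other mice in the chosen class. Pcna (the sliding clamp of DNA replication) had a UMI in 49 of 199 chosen cells.

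**Figure D1:**
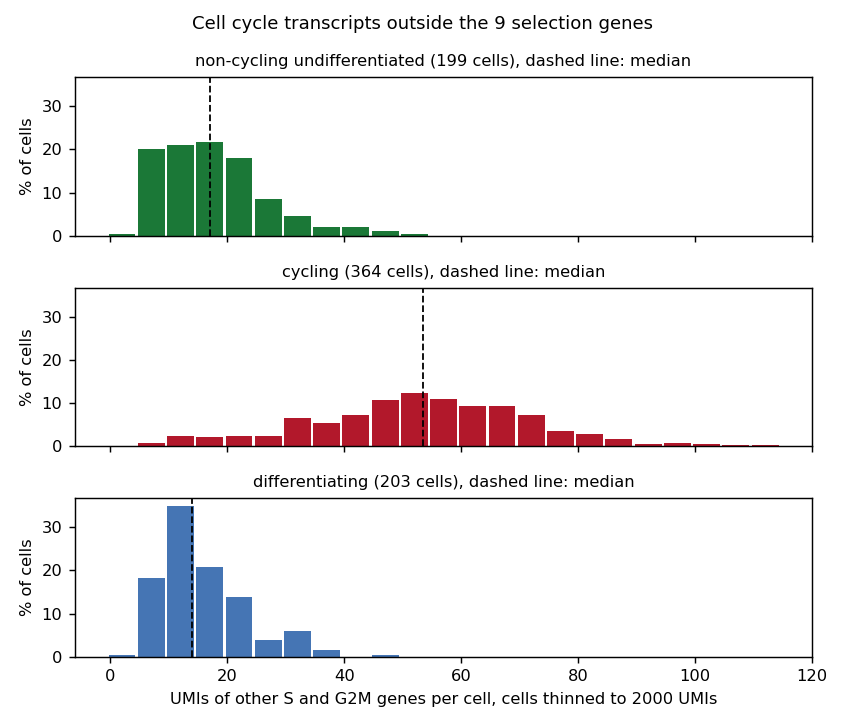
Share of cells (%) by the number of UMIs of 124 S phase and G2M genes other than the 9 selection genes, each cell thinned to 2000 UMIs, for 199 non-cycling undifferentiated, 364 cycling and 203 differentiating cells. Dashed lines mark the medians of 17, 53.5 and 14 UMIs; the first distribution lies over the third and its upper tail reaches into the second.

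Set against the cycling cells, the S phase list was lower for 25 of 47 genes tested and the G2M list for 69 of 72, with 0 genes higher in either, against 6.52% lower, 2.95% higher and 9.47% in either direction among all 4753 genes tested. Nothing is read from these counts, because the contrast chose the classes. The most abundant of these genes fell less than the mitotic ones. H2afz (a histone variant) was at 2937, 2806, 3903 and 3071 CPM in the chosen cells of mice 1 to 4, against 7111, 6516, 7534 and 6995 CPM in cycling cells. Dut, which removes dUTP from the nucleotide pool, was at 370, 296, 318 and 283 CPM, against 732, 519, 702 and 650 CPM. The groups did not overlap for either gene. Ptma (prothymosin alpha) overlapped, at 7539, 7707, 9772 and 9259 CPM against 9823, 9492, 10532 and 11316 CPM, and Nasp (a histone chaperone) also overlapped, at 338 to 520 CPM against 466 to 780 CPM. Of 9 histone genes tested, 6 were lower, but 2 of them, Hist1h1b and Hist1h2ap, are selection genes whose fall the rule fixed. Another was Hist1h2al, at 20.7 to 86.7 CPM against 188 to 335 CPM. Histone genes have near-identical copies, so counts may be split between them, and only their polyadenylated transcripts are captured.

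Outside the lists that chose the classes, 343 of 4614 genes (7.43%) differed between chosen and cycling cells, 140 higher (3.03%) and 203 lower (4.4%). DESeq2 on the same sums called 80 of these genes, 18 higher and 62 lower, and the fit without the mouse block called 120, 22 higher and 98 lower. Without mouse 1, which holds the most chosen cells, 121 genes were called.

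The named genes with the largest falls outside the selection and cell cycle lists were low in the chosen cells, which the rule chose for a lack of cycle transcripts. Aspm, which organises spindle poles, had 0 UMIs in the chosen cells, against 40.5, 64.9, 103 and 58 CPM in cycling cells of mice 1 to 4 (80 UMIs), and was at least 11.2-fold lower, taking 3 UMIs over the class as the floor. Ncapg (a condensin subunit) had 1 UMI, a ratio of 0.0224 to the cycling level (exact 95% counting interval 0.000562 to 0.128). Cdca5 (sororin, which stabilises sister chromatid cohesion) also had 1 UMI, at 4.21, 0, 0 and 0 CPM against 93.8, 53.5, 53.6 and 53.1 CPM, a ratio of 0.028 (0.0007 to 0.16). The classes did not overlap for any of these genes. Kifc1 (a kinesin of the spindle) had 1 UMI against 70 UMIs, a ratio of 0.0339 (0.000847 to 0.195), and Melk (a kinase of proliferating cells) 2 UMIs against 120 UMIs. C330027C09Rik had 3 UMIs against 113 UMIs. Esco2 (the cohesin acetyltransferase of S phase) was at 0 to 34.5 CPM against 149 to 219 CPM, with a log2 fold change of -3.76 ± 0.38 (adjusted p = 4.18e-12). These 7 genes were lower in 4 of 4 mice, which was a condition for naming them. They had the same side of the threshold in all alternatives in which they could be tested. Their falls are a description, since a lack of cycle transcripts chose the class, and these genes count among the 203 lower ones.

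Promoters are shown for 2 of these genes and for Btg2, a gene higher in the chosen cells, because cell cycle genes are known to carry CCAAT boxes and cell cycle homology elements (core TTTGAA) there. They are the genes among those above and a few described later that have 1 start in the table, at the outer end of the annotated gene. Each line gives the 250 bases before the start, 5′ to 3′ on the gene's strand, from RefSeq on GRCm38.p6, and capitals mark CCAAT boxes and the TTTGAA core on either strand. Cdca5 lies at chr19:6084847-6085096 on the plus strand, Kifc1 at chr17:33890634-33890883 on the minus strand, and Btg2 at chr1:134079156-134079405 on the minus strand.
Cdca5: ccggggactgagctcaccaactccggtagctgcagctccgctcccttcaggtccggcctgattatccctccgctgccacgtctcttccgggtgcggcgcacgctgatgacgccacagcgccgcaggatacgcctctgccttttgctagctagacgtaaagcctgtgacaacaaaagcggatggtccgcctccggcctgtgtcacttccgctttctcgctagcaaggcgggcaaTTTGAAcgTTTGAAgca
Kifc1: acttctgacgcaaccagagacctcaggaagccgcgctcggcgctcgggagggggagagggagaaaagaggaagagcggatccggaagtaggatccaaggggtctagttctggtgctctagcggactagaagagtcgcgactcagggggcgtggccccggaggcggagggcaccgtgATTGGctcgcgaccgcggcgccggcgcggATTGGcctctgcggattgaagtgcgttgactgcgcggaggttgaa
Btg2: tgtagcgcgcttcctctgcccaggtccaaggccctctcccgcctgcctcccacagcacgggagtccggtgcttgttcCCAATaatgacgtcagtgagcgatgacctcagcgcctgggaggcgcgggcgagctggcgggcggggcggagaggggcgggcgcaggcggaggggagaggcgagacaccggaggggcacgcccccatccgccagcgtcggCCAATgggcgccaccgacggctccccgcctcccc
These letters held 2 TTTGAA matches and 0 CCAAT matches in Cdca5, and 0 and 2 matches in each of Kifc1 and Btg2. The next 50 bases, not printed, brought Kifc1 to 1 TTTGAA match and 3 CCAAT matches, and left the counts of Cdca5 and Btg2 as they were. In windows of 300 bases (250 before and 50 after the start), both strands searched, TTTGAA was present in 23.4% of the 167 genes lower in the chosen cells that have a promoter in the table (of 203), in 11.1% of the 99 genes higher (of 140) and in 15.1% of the 3690 genes tested. CCAAT was present in 58.1% of the genes lower, 43.4% of those higher and 44.6% of those tested. Both were present in 15.6%, 1.01% and 6.45%. Over all 27025 genes of the table the shares were 20.2%, 41.1% and 7.97%. These shares are a description, with no test, and a match is not a bound site.

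The cell cycle inhibitors did not stand higher in the chosen cells. Among all genes tested, 2.95% were higher and 6.52% lower. Of 6 genes of the list of cyclin-dependent kinase inhibitors and pocket proteins that could be tested, 0 were higher and 3 were lower, with a median log2 fold change of -0.95 against 0.01 over all genes tested. The levels of those 3 may move with the cycle genes that chose the classes, which was not tested. None was higher in any of 22 alternatives, but the median depended on the mice and cells: it was -0.20 without mouse 1 (1 lower of 5 tested), -0.25 without mouse 2 (2 lower) and -0.05 in chosen cells with 0 neuronal UMIs (2 lower). Cdkn2d (p19-INK4d, an inhibitor of CDK4 and CDK6) was at 16.8, 34.5, 57.8 and 15.7 CPM in the chosen cells of mice 1 to 4, against 119, 95.5, 107 and 96.6 CPM in cycling cells. The classes did not overlap, and the log2 fold change was -2.12 ± 0.36 (adjusted p = 8.54e-06, lower in 4 of 4 mice).

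Cdkn2c (p18-INK4c), which restrains medulloblastoma in Ptch1 mutant mice, was at 21, 34.5, 173 and 55 CPM in the chosen cells, against 114, 122, 210 and 126 CPM in cycling cells. Mouse 3 was high in both classes, and the log2 fold change was -1.52 ± 0.30 (adjusted p = 0.000147, lower in 4 of 4 mice); without mouse 1 it was no longer called. Cdkn3, a phosphatase that acts on CDK1 and CDK2, was at 8.41, 13.8, 0 and 0 CPM against 30.4, 45.8, 35.7 and 55.6 CPM, with a log2 fold change of -2.42 ± 0.66 (adjusted p = 0.00805; not called by DESeq2). The inhibitors most often tied to cell cycle exit were not called. Cdkn1b (p27) was at 71.5, 68.9, 145 and 118 CPM against 58.3, 72.6, 112 and 65.2 CPM, with a log2 fold change of 0.37 ± 0.28 (adjusted p = 0.493). Cdkn1a (p21) was at 54.7, 55.1, 173 and 134 CPM against 96.3, 103, 210 and 106 CPM, with -0.39 ± 0.26 (adjusted p = 0.427), and 33 of 199 chosen cells held a UMI of it. Both pairs overlapped, and the errors leave room for changes of either sign. Cdkn1c (p57) was too low to be tested, at 0 to 55 CPM. None of the 7 genes of the p53 target list that could be tested was called by edgeR or DESeq2, and 0 had an unadjusted p under 0.05.

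Of the SHH pathway genes, read in both classes, 1 of 10 tested was higher in the chosen cells and 0 were lower, with a median log2 fold change of 0.05. The shares over all genes tested were 2.95% higher and 6.52% lower. Ptch1 was at 341, 303, 318 and 393 CPM in the chosen cells of mice 1 to 4, against 390, 294, 357 and 266 CPM in cycling cells. The classes overlapped, 2 mice went each way, and the log2 fold change was 0.06 ± 0.14 (adjusted p = 0.887). Gli1, the transcription factor whose level reports Smoothened activity, was at 37.9, 62, 0 and 31.4 CPM against 43.1, 45.8, 13.4 and 50.7 CPM, with -0.15 ± 0.41 (adjusted p = 0.895). Gli2 was at 0 to 34.5 CPM against 17.7 to 42 CPM and could not be tested. The D-type cyclins are Gli targets that drive G1. Ccnd1 (chr7:144929931-144939831, GRCm38.p6) was at 665, 607, 491 and 534 CPM against 611, 539, 456 and 495 CPM, with a log2 fold change of 0.12 ± 0.11 (adjusted p = 0.61), and 150 of 199 chosen cells held a UMI. Ccnd2 was at 1018, 1248, 838 and 919 CPM against 920, 1127, 1010 and 988 CPM, with 0.03 ± 0.09 (adjusted p = 0.92), and 173 of 199 chosen cells held a UMI. Both cyclins overlapped between the classes. The signs of the fold changes of Ptch1, Zic1, Gli1, Ccnd1 and Ccnd2 turned under some alternatives.

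The gene of that list that was called was Mycn, the Myc family member that SHH signalling induces in granule precursors. It was at 252, 303, 86.7 and 220 CPM in the chosen cells, against 157, 176, 161 and 147 CPM in cycling cells. The chosen cells were higher in mice 1, 2 and 4 and lower in mouse 3, with a log2 fold change of 0.58 ± 0.18 (adjusted p = 0.0239); 10 of 22 alternatives, among them DESeq2, lost the call. Myc was at 84.1, 89.6, 173 and 78.5 CPM against 48.2, 30.6, 35.7 and 29 CPM. All 4 mice were higher with no overlap, and the log2 fold change was 1.30 ± 0.32 (adjusted p = 0.00306). The call was lost in 5 of 22 alternatives, DESeq2 among them. Among G1 cyclins and kinases the other call was Cks1b, a subunit of cyclin-dependent kinases, at 172, 179, 347 and 204 CPM against 537, 493, 643 and 495 CPM (log2 fold change -1.42 ± 0.15, adjusted p = 1.52e-11). Cks1b is also on the G2M list.

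Granule lineage genes showed 2 of 11 higher and 0 lower, against 2.95% higher and 6.52% lower among all genes tested. Barhl1 (chr2:28907680-28917984) was at 370, 538, 578 and 440 CPM in the chosen cells of mice 1 to 4, against 215, 332, 416 and 406 CPM in cycling cells. It was higher in 4 of 4 mice although the classes overlapped, with a log2 fold change of 0.50 ± 0.13 (adjusted p = 0.00715); DESeq2, the fit without the block and 5 other alternatives lost the call. Mfap4, an extracellular matrix protein used here as a marker of this lineage, was at 282, 276, 347 and 385 CPM against 139, 134, 197 and 208 CPM. The classes did not overlap, with 0.94 ± 0.16 (adjusted p = 8.09e-06). Zic1 was at 417, 434, 347 and 534 CPM against 423, 390, 478 and 389 CPM, with 0.11 ± 0.13 (adjusted p = 0.709). Atoh1, the transcription factor that keeps granule precursors immature, was at 198, 262, 260 and 126 CPM against 150, 206, 130 and 114 CPM, higher in 4 of 4 mice without reaching the threshold (0.38 ± 0.19, adjusted p = 0.227), and 79 of 199 chosen cells held a UMI. Neurod1, which starts granule neuron differentiation, was at 42.1, 62, 28.9 and 118 CPM against 83.6, 103, 67 and 106 CPM (-0.51 ± 0.29, adjusted p = 0.329). With no neuronal limit on the cycling cells it was called lower (-1.06), the 1 alternative of 22 that called it. Tubb3, a neuronal tubulin, was at 244, 241, 260 and 393 CPM against 188, 225, 237 and 411 CPM (0.12 ± 0.15, adjusted p = 0.722). Of 27 differentiation genes outside the 5 selection genes, 0 were higher and 1 (Dpysl2) was lower, and of 6 synapse genes none was called by edgeR or DESeq2, with 1 at an unadjusted p under 0.05.

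**Figure D2:**
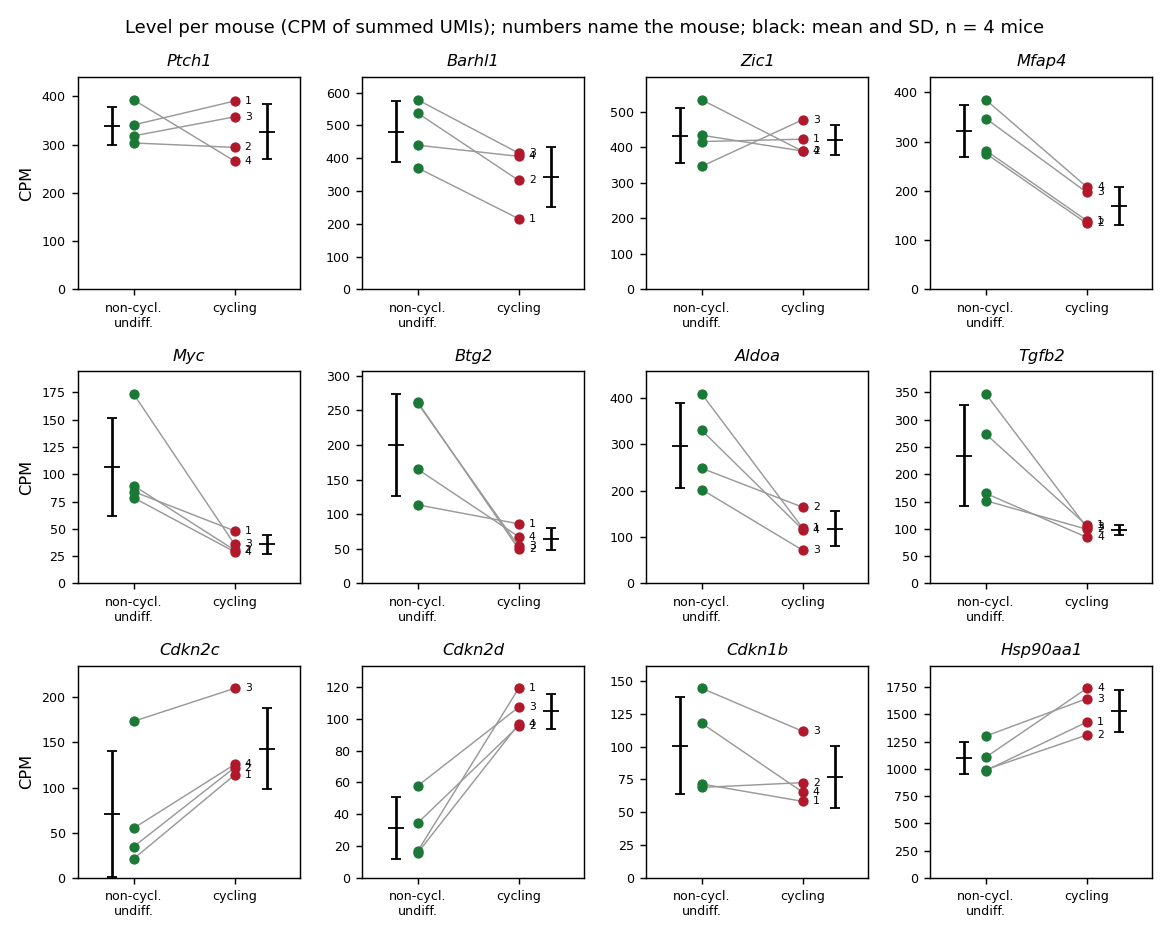
Level in CPM of 12 genes in non-cycling undifferentiated cells (left, green) and cycling cells (right, red) of the same 4 mice, joined by lines, with the mean and SD in black; each axis starts at 0. Ptch1, Zic1 and Cdkn1b overlap, Mfap4, Myc, Btg2, Aldoa and Tgfb2 are higher on the left in every mouse without overlap, and Cdkn2c, Cdkn2d and Hsp90aa1 are lower on the left in every mouse.

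Several called genes outside these lists were higher in the chosen cells than in cycling cells. The share over all genes tested was 2.95% higher and 6.52% lower. Many of these named genes were not called against differentiating cells in the fit without the 6 cells with markers of other types. That does not show equal levels. There Btg2 (log2 fold change 0.14), Kdm5b (0.25), Kdm6b (0.015), Robo2 (0.09), Tgfb2 (0.33 ± 0.21), Gm17322 (-0.01) and Aldoa (-0.31 ± 0.17) were not called. Myc (0.64 ± 0.35) and Mfap4 (0.44 ± 0.18), described above, were not called there either. Btg2, an antiproliferative gene that is induced when neural precursors turn to neurogenic division, was at 114, 262, 260 and 165 CPM in the chosen cells of mice 1 to 4, against 86.2, 49.7, 53.6 and 67.6 CPM in cycling cells. The classes did not overlap, with a log2 fold change of 1.37 ± 0.25 (adjusted p = 3.8e-05). Of 13 antiproliferative genes tested it was the 1 that was higher, and Ccng2 (cyclin G2, tied to cell cycle arrest) was lower, at 37.9, 55.1, 86.7 and 39.3 CPM against 98.8, 91.7, 152 and 109 CPM (-1.16 ± 0.30, adjusted p = 0.00551; lost by DESeq2 and without mouse 1). Kdm5b, a histone H3 lysine 4 demethylase, was at 58.9, 159, 145 and 126 CPM against 30.4, 42, 17.9 and 26.6 CPM, with 1.83 ± 0.32 (adjusted p = 1.65e-05), and held the call in all 22 alternatives. Of 15 chromatin genes tested, Kdm6b, an H3 lysine 27 demethylase, was higher (1.23 ± 0.38, adjusted p = 0.0267; lost by DESeq2 and without mouse 1 or mouse 2), at 71.5, 117, 57.8 and 39.3 CPM against 32.9, 30.6, 4.47 and 36.2 CPM. Ezh2, the methyltransferase of the same residue, was lower (-0.91, adjusted p = 0.000106, lower in 3 of 4 mice).

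Secreted and guidance genes added 3 calls. Tgfb2 (transforming growth factor beta 2) was at 273, 152, 347 and 165 CPM in the chosen cells, against 106, 99.3, 103 and 84.5 CPM in cycling cells, with no overlap and a log2 fold change of 1.15 ± 0.20 (adjusted p = 1.71e-05). Mdk (midkine, a heparin-binding growth factor) was at 387, 510, 665 and 346 CPM against 307, 351, 179 and 319 CPM, with 0.49 ± 0.15 (adjusted p = 0.0211), and lost the call in 10 of 22 alternatives. These were the 2 called genes of 11 secreted growth factors tested, both higher, against 2.95% higher among all genes tested. Robo2, a receptor for Slit guidance cues, was at 130, 131, 116 and 78.5 CPM against 50.7, 38.2, 31.3 and 26.6 CPM, with 1.54 ± 0.29 (adjusted p = 5.06e-05) and no overlap.

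Of 10 glycolysis genes tested 2 were higher and 0 lower, against 2.95% higher and 6.52% lower among all genes tested. Aldoa, the aldolase of glycolysis (chr7:126795234-126800994), was at 408, 248, 202 and 330 CPM in the chosen cells of mice 1 to 4, against 119, 164, 71.5 and 116 CPM in cycling cells. The classes did not overlap, and the log2 fold change of 1.38 ± 0.18 (adjusted p = 1.37e-08) was called in all 22 alternatives. Ldhb, the lactate dehydrogenase B chain, was at 383, 248, 318 and 385 CPM against 223, 214, 161 and 164 CPM (0.78 ± 0.16, adjusted p = 0.000184; lost by DESeq2). The 6 cells with markers of other types held 15.9% of the Aldoa UMIs and 18.7% of the Ldhb UMIs of the class; without them Aldoa stood at 370, 248, 202 and 230 CPM with a log2 fold change of 1.17, and Ldhb had one of 0.52, both called. Gapdh (-0.07) and Pkm (0.01), glycolytic enzymes of the same list, were not called.

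Genes of translation showed small shifts. Over all genes tested, 2.95% were higher than in cycling cells and 6.52% lower. Ribosomal protein transcripts were 19.5%, 20.0%, 18.6% and 17.8% of UMIs in the chosen cells of mice 1 to 4, against 16.5%, 16.9%, 14.9% and 16.0% in cycling cells and 18.5%, 16.7%, 17.5% and 16.8% in differentiating cells. The chosen cells lay above the cycling cells in every mouse with no overlap. Of 76 ribosomal protein genes tested 34 were higher and 0 lower, with a median log2 fold change of 0.22 against 0.01 over all genes, and an example is Rps14, at 5427, 5473, 5985 and 4594 CPM against 4455, 4324, 4200 and 3843 CPM (0.31 ± 0.06, adjusted p = 6.18e-05). The count ran from 1 to 60 over 22 alternatives, with 3 under DESeq2, 1 with no filter on low counts and 12 without mouse 1, while the list median exceeded that of all genes by 0.15 to 0.26 in each. These genes have many processed pseudogenes that may share reads. Among 24 ribosome biogenesis genes only Rcc1, a nuclear exchange factor placed on that list, was called, and it was lower (0 to 62 CPM against 71 to 121 CPM, -1.27 ± 0.35, adjusted p = 0.00939; lost by DESeq2 and without mouse 1).

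Heat shock genes went both ways, with 1 of 11 higher and 1 lower. For this and the next lists, the shares over all genes tested were 2.95% higher and 6.52% lower. Hsp90aa1, the inducible HSP90, was at 984, 993, 1301 and 1107 CPM in the chosen cells against 1429, 1310, 1644 and 1739 CPM in cycling cells (-0.52 ± 0.09, adjusted p = 3.95e-06), with no overlap. Hsp90ab1, the constitutive form, was at 4346, 4053, 3845 and 4579 CPM against 3396, 3155, 3727 and 3927 CPM (0.25 ± 0.06, adjusted p = 0.00458). Its call was lost in 7 of 22 alternatives, among them DESeq2, no replicate block, and without mouse 1 or mouse 2. Of 9 immediate early genes 1 was higher, Junb, at 75.7, 48.3, 57.8 and 126 CPM against 58.3, 26.7, 13.4 and 16.9 CPM (1.26 ± 0.38, adjusted p = 0.0206; lost by DESeq2 and without mouse 2 or mouse 4). Vesicle and tetraspanin genes gave 2 of 20 higher, Cd81 (0.32 ± 0.11) and Cd63 (0.25 ± 0.08), both lost under 11 or 12 of 22 alternatives. Malat1, a nuclear long RNA, was at 14388, 18170, 17665 and 14977 CPM against 10941, 15099, 16404 and 12453 CPM (0.24 ± 0.05, adjusted p = 0.000681; lost by DESeq2 and without mouse 1). Cells with under 30 Malat1 UMIs per 10000 made up 3.49% ± 3.36 of the chosen cells and 9.65% ± 6.99 of cycling cells (SD, n = 4 each), and their part in the results was not tested beyond leaving them out.

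Stem, Notch and Id genes gave 3 of 13 higher and 0 lower, against 2.95% higher and 6.52% lower among all genes tested. Id2, an inhibitor of bHLH factors, had a log2 fold change of 0.72 (adjusted p = 2.62e-05) and Sox4 one of 0.59 (adjusted p = 0.0412), each higher in 3 of 4 mice. Id3 (1.72, adjusted p = 0.00776) had 43.6% of its UMIs in the 6 cells with markers of other types, and without them its adjusted p was 0.345. Hes1, a Notch effector, was at 54.7, 89.6, 0 and 55 CPM against 53.2, 68.8, 17.9 and 7.25 CPM (0.53 ± 0.40, adjusted p = 0.494). It was called higher in 2 of 21 alternatives, with classes drawn from thinned cells (1.33) and with no neuronal limit on the cycling cells. Sox2 was too low to test, with a UMI in 5 of 199 chosen cells, at 8.41, 13.8, 0 and 7.85 CPM against 10.1, 22.9, 4.47 and 7.25 CPM in cycling cells.

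The rise of Chchd10 (a mitochondrial intermembrane protein) rested on the same 6 cells. It was at 50.5, 20.7, 28.9 and 298 CPM in the chosen cells, against 0, 3.82, 0 and 9.66 CPM in cycling cells (4.75 ± 0.57, adjusted p = 9.74e-10). Of its 54 UMIs 45 were in those cells, and without them it stood at 17.6, 20.7, 28.9 and 8.85 CPM and fell below the filter for testing. The same held for Ttr and Mt3, which were called higher and had 2239 of 2240 and 38 of 50 UMIs there. Ttr and Mt3 were also called higher against differentiating cells. Other named genes that were higher were Nudt18 (a nucleotide hydrolase, 1.78 ± 0.55), Ctsf (cathepsin F, 1.54 ± 0.48), and Gm17322, annotated as a pseudogene, at 236, 248, 173 and 267 CPM against 63.4, 134, 44.7 and 118 CPM (1.35 ± 0.20, adjusted p = 3.99e-07). Nudt18 and Ctsf lost the call by DESeq2 and without mouse 4, and Ctsf also without mouse 2.

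**Figure D3:**
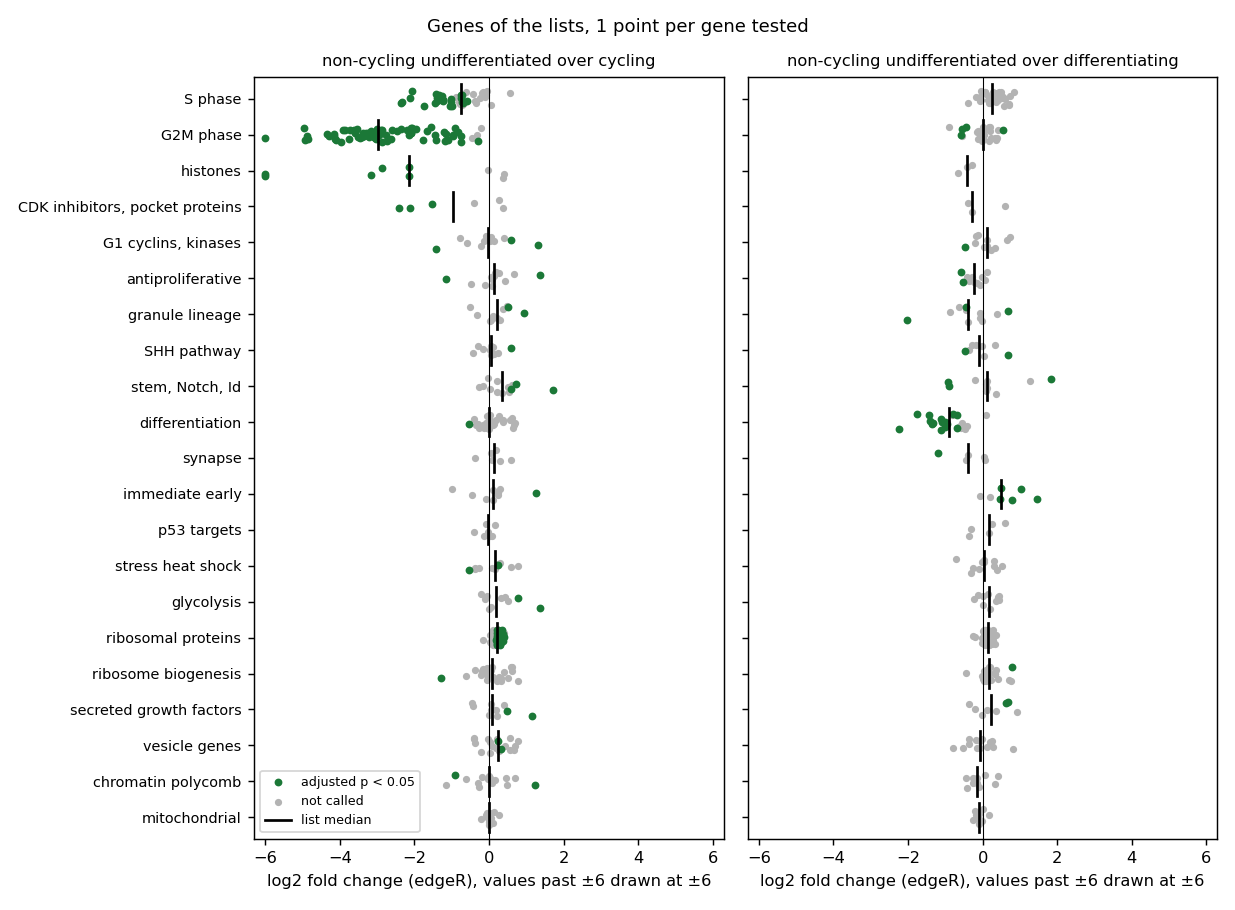
Log2 fold change (edgeR, horizontal axis) of every tested gene of 21 gene lists (rows) in non-cycling undifferentiated cells over cycling cells (left) and over differentiating cells (right); green points passed an adjusted p of 0.05, grey points did not, and black bars are list medians. In the left panel the medians of the S phase, G2M and histone lists lie below 0 and 34 of 76 ribosomal protein genes are called higher. In the right panel 15 of 26 differentiation genes are called lower and 5 of 7 immediate early genes are called higher. Over all genes tested, 2.95% were called higher and 6.52% lower on the left, and 0.728% and 2.07% on the right.

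Cells of the chosen class were shallower than cycling cells. The median was 2382.5, 2896, 2269 and 3258 UMIs per cell in mice 1 to 4, against 3062.5, 3808, 2708.5 and 4330 UMIs in cycling cells, lower in 4 of 4 mice, with a mean difference of -776 ± 276 UMIs (SD, n = 4; exact two-sided sign-flip permutation p = 0.125, the smallest that 4 mice allow). At 2000 UMIs per cell the median number of genes was 1149, 1154, 1135 and 1177, against 1173.5, 1168, 1172 and 1174, lower in 3 of 4 mice (exact permutation p = 0.25). The minimum of 2000 UMIs, the limit of 0 cycle UMIs and the minimum of 3 cycle UMIs in cycling cells all bear on depth. Drawn from cells thinned to 2000 UMIs, the same limits gave 137, 103, 25 and 92 cells and a mean share of 16.3%. Mitochondrial UMIs had a median of 3.07% ± 0.167 in the chosen cells, against 2.78% ± 0.319 in cycling cells (n = 4 each), higher in 4 of 4 mice (exact permutation p = 0.125). Total UMIs and the mitochondrial share were both limited by the selection rule, so these differences are a description.

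Against the differentiating cells, which lack the same cycle transcripts, the chosen cells had fewer neuronal transcripts by the rule itself. Of the other lists, the immediate early genes gave 5 higher of 7 tested (1 by DESeq2). Among all genes tested, 0.728% were higher and 2.07% lower. Outside the differentiation and synapse lists, 79 of 3534 genes (2.24%) differed, 26 higher (0.736%) and 53 lower (1.5%). Genes of neuronal maturation that are on neither list, among them Neurod1, Sox11, Nfib and Nfix, stayed in that count. DESeq2 called 13 of these, 1 higher and 12 lower, the fit without the mouse block 9, and the fit without mouse 1 called 22 genes. Among S phase genes none of 34 was called by edgeR or DESeq2, with 5 at an unadjusted p under 0.05, and of 24 G2M genes 1 was higher (Tubb4b) and 3 were lower (Stmn1, Hn1 and Tubb5, of which Stmn1 and Tubb5 are also expressed by young neurons). The median log2 fold change was 0.25 for S phase and 0.02 for G2M genes, against 0.02 over all genes. UMIs of the 124 other S phase and G2M genes per thinned cell had a median of 18 ± 4.78, against 14.5 ± 1.91 in differentiating cells. They were higher in 4 of 4 mice (exact permutation p = 0.125). Depth was close, with a median of 2701 ± 461 UMIs per cell in the chosen cells and 2730 ± 412 UMIs in differentiating cells (SD, n = 4 each).

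The neuronal genes are given as a description, since 5 of their kind chose the classes: 15 of 26 differentiation genes were lower and 0 higher, against 2.07% lower, 0.728% higher and 2.8% in either direction among all 3570 genes tested. Tubb3 was at 244, 241, 260 and 393 CPM in the chosen cells of mice 1 to 4, against 875, 967, 517 and 1259 CPM in differentiating cells. Map1b (microtubule-associated protein 1B) was at 173 to 401 CPM against 577 to 782 CPM, and Rtn1 (reticulon 1) at 689 to 832 CPM against 1095 to 1526 CPM. None of these pairs overlapped. Nhlh2, a bHLH factor of newborn neurons, was at 46.3 to 116 CPM against 178 to 273 CPM, and Mllt11 at 28.9 to 78.5 CPM against 156 to 220 CPM. Of the synapse genes, Gria2 (an AMPA receptor subunit) was lower, at 28.9 to 78.5 CPM against 30.4 to 168 CPM, and lost the call in 11 of 20 alternatives, among them DESeq2, no block, and without mouse 1, mouse 2 or mouse 4.

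Among lineage genes, 1 of 11 was higher and 2 were lower, against 0.728% higher and 2.07% lower among all genes tested. Ptch1 was at 341, 303, 318 and 393 CPM in the chosen cells, against 225, 184, 365 and 201 CPM in differentiating cells, higher in mice 1, 2 and 4 and lower in mouse 3 (0.68 ± 0.18, adjusted p = 0.0066; lost in 10 of 20 alternatives, DESeq2 among them). Barhl1 went the other way, at 370, 538, 578 and 440 CPM against 506, 782, 638 and 627 CPM, lower in 4 of 4 mice (-0.46 ± 0.14, adjusted p = 0.0372). It lost the call in 10 of 20 alternatives and without the 6 cells had an adjusted p of 0.0781. Zic1 was also lower in 4 of 4 mice, at 417, 434, 347 and 534 CPM against 552, 682, 395 and 683 CPM, and missed the threshold (-0.44 ± 0.14, adjusted p = 0.0553), which it passed in 4 of 20 alternatives. Neurod1 was at 42.1, 62, 28.9 and 118 CPM against 210, 330, 60.8 and 370 CPM (-2.03 ± 0.24, adjusted p = 1.49e-14), lower in every mouse and called in all 20 alternatives. Its level may move with the 5 neuronal genes that chose the classes, which was not tested. Atoh1 was at 198, 262, 260 and 126 CPM against 256, 212, 182 and 150 CPM (-0.06 ± 0.20, adjusted p = 0.953), and the sign of its fold change turned in 6 of 20 alternatives.

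Within the SHH list 1 of 8 genes was higher (Ptch1) and 1 lower (Ccnd2), against 0.728% higher and 2.07% lower among all genes tested. Ccnd2 was at 1018, 1248, 838 and 919 CPM in the chosen cells, against 1361, 1755, 760 and 1470 CPM in differentiating cells, lower in mice 1, 2 and 4 and higher in mouse 3 (-0.46 ± 0.11, adjusted p = 0.00107). Its call was lost in 4 of 20 alternatives: DESeq2, no replicate block, and without mouse 1 or mouse 4. Ccnd1 was at 665, 607, 491 and 534 CPM against 460, 604, 365 and 412 CPM (0.33 ± 0.14, adjusted p = 0.231; called in 2 of 20 alternatives), and Mycn at 252, 303, 86.7 and 220 CPM against 256, 363, 182 and 257 CPM (-0.18 ± 0.18, adjusted p = 0.786). Cdkn1b was at 71.5, 68.9, 145 and 118 CPM against 128, 78.2, 213 and 117 CPM (-0.39 ± 0.28, adjusted p = 0.645). None of the 3 inhibitors that could be tested was called by edgeR or DESeq2, and 0 had an unadjusted p under 0.05. Gli1, Gli2, Hes1, Cdkn1c and Sox2 were too low to test.

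Transcription factors outside the selection lists also differed. Those tied to neuronal maturation may move with the 5 neuronal genes that chose the classes, which was not tested. Sox11, a factor of immature neurons, was at 353, 379, 405 and 487 CPM in the chosen cells of mice 1 to 4, against 634, 872, 699 and 814 CPM in differentiating cells, with no overlap (-0.90 ± 0.14, adjusted p = 1.34e-08, called in all 20 alternatives). Hey1, a Notch target, was at 135, 124, 86.7 and 126 CPM against 261, 263, 122 and 229 CPM (-0.93 ± 0.21, adjusted p = 0.00087). Nfib was at 1085, 1413, 1503 and 1398 CPM against 1734, 1867, 1550 and 2246 CPM with no overlap (-0.52 ± 0.10, adjusted p = 1.56e-05). Nfix was at 391, 310, 694 and 605 CPM against 655, 643, 851 and 679 CPM (-0.58 ± 0.14, adjusted p = 0.00192). Nuclear factor I proteins, to which both belong, drive the maturation of granule neurons. Hey1, Nfib and Nfix lost the call without mouse 1 and without the block, and Hey1 and Nfix also by DESeq2. Nfix lost it without mouse 2 as well. Id1 was higher (1.85, adjusted p = 0.00244, 47 UMIs against 16) and was also called without the 6 cells.

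Immediate early genes, which respond within minutes to growth factors, activity or tissue handling, were higher in the chosen cells for 5 of 7 tested and lower for 0. The shares over all genes tested were 0.728% higher and 2.07% lower. Egr1 was at 568, 738, 347 and 872 CPM in the chosen cells of mice 1 to 4, against 327, 458, 152 and 510 CPM in differentiating cells (0.78 ± 0.14, adjusted p = 2.84e-06). Fos was at 177, 255, 202 and 267 CPM against 97.2, 162, 0 and 108 CPM (1.02 ± 0.22, adjusted p = 0.000303; lost in 7 of 20 alternatives, without mouse 4 among them). Ier2 was at 526, 862, 520 and 613 CPM against 389, 620, 365 and 440 CPM (0.48 ± 0.14, adjusted p = 0.0208; lost in 11 of 20). Each was higher in 4 of 4 mice, and only Fos did not overlap. Junb (1.46 ± 0.44, lost in 7 of the 11 alternatives that could test it) and Jun (0.48) were the other calls. The count was 5 of 7 in the fit given, 1 under DESeq2, 0 without the block, and between 1 and 4 when a mouse was left out, and the list median lay above that of all genes by 0.45 to 0.78 in all 20 alternatives. Tissue was dissociated for 20 minutes, and the part of handling was not tested. Against cycling cells, Fos (-0.09), Egr1 (0.11) and Ier2 (0.09) were not called. This depended on the neuronal limit on the cycling class: with no such limit 4 of 11 immediate early genes were higher, and the list median lay 0.41 above that of all genes. The difference between the comparisons, which share the chosen cells, was not tested.

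Other named genes were also higher in the chosen cells than in differentiating cells. Mdk was at 387, 510, 665 and 346 CPM against 276, 313, 152 and 253 CPM, with no overlap (0.67 ± 0.16, adjusted p = 0.00267; lost in 8 of 20 alternatives, among them DESeq2, no block, and without mouse 1 or mouse 2). Cltb, a clathrin light chain, was at 644, 551, 607 and 503 CPM against 368, 414, 273 and 285 CPM, with no overlap (0.72 ± 0.15, adjusted p = 9.54e-05; lost by DESeq2). Gnai2, an inhibitory G protein subunit, was at 332, 372, 260 and 314 CPM against 200, 201, 60.8 and 192 CPM (0.83 ± 0.18, adjusted p = 0.000501; lost by DESeq2). Phgdh, the first enzyme of serine synthesis, was at 181 to 231 CPM against 30.4 to 140 CPM (0.80 ± 0.23), Gnl3 (nucleostemin) at 131 to 210 CPM against 83.8 to 136 CPM (0.80 ± 0.23), and Sdpr (a caveolar protein) at 28.9 to 78.5 CPM against 0 to 28.1 CPM (1.77 ± 0.54). Pdgfa, a ligand of the PDGF receptor, was also higher (0.63, adjusted p = 0.043, 3 of 4 mice). Phgdh lost the call in 9 of 20 alternatives and Gnl3 in 12 of 20, both by DESeq2 and without mouse 1 or mouse 4, and Gnl3 also without mouse 2. Cltb and Gnai2 lost it in 4 of 20 each, Cltb without mouse 1 among them. Sdpr lost it in 4 of the 10 that could test it: DESeq2, without mouse 2, at most 5% mitochondrial UMIs, and without cells low in Malat1. Phgdh was lower than in cycling cells in the fit without the 6 cells with markers of other types (-0.76 ± 0.17, called). There it was at 185, 193, 231 and 204 CPM in mice 1 to 4, against 350, 361, 183 and 312 CPM.

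Further named genes were lower than in differentiating cells. Ren1, which encodes renin, was at 4.21, 20.7, 0 and 47.1 CPM in the chosen cells, against 266, 95, 30.4 and 98.3 CPM in differentiating cells (-3.03 ± 0.39, adjusted p = 3.84e-12), lower in every mouse. Mroh2a was at 25.2, 13.8, 0 and 55 CPM against 164, 162, 60.8 and 140 CPM (-2.39 ± 0.35, adjusted p = 4.3e-09) with no overlap. Tex14 was at 0 to 23.6 CPM against 46 to 122 CPM (adjusted p = 0.00807), and Serp2 at 4.21 to 31.4 CPM against 30.4 to 72.7 CPM (adjusted p = 0.0382). Miat, a long non-coding RNA of neurons, was at 21, 48.3, 86.7 and 188 CPM against 128, 263, 91.2 and 225 CPM (-1.28 ± 0.26, adjusted p = 6.38e-05). Tex14, Serp2 and Miat lost the call by DESeq2, and Ren1, Tex14 and Miat without mouse 1. Tex14 and Serp2 also lost it without mouse 2 or mouse 4, and Miat without mouse 2. None of the 75 ribosomal protein genes tested was called by edgeR or DESeq2 in this comparison, with 20 at an unadjusted p under 0.05. The count higher ran from 0 to 21 over 20 alternatives, with 15 of 74 when the classes were drawn from thinned cells and 21 of 76 at 1000 UMIs per cell, and 0 were lower in each. Also without a call by edgeR or DESeq2 were 15 vesicle genes (2 at an unadjusted p under 0.05), 10 glycolysis genes (4), 11 heat shock genes (4), 10 chromatin genes (0) and 5 p53 target genes (0).

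**Figure D4:**
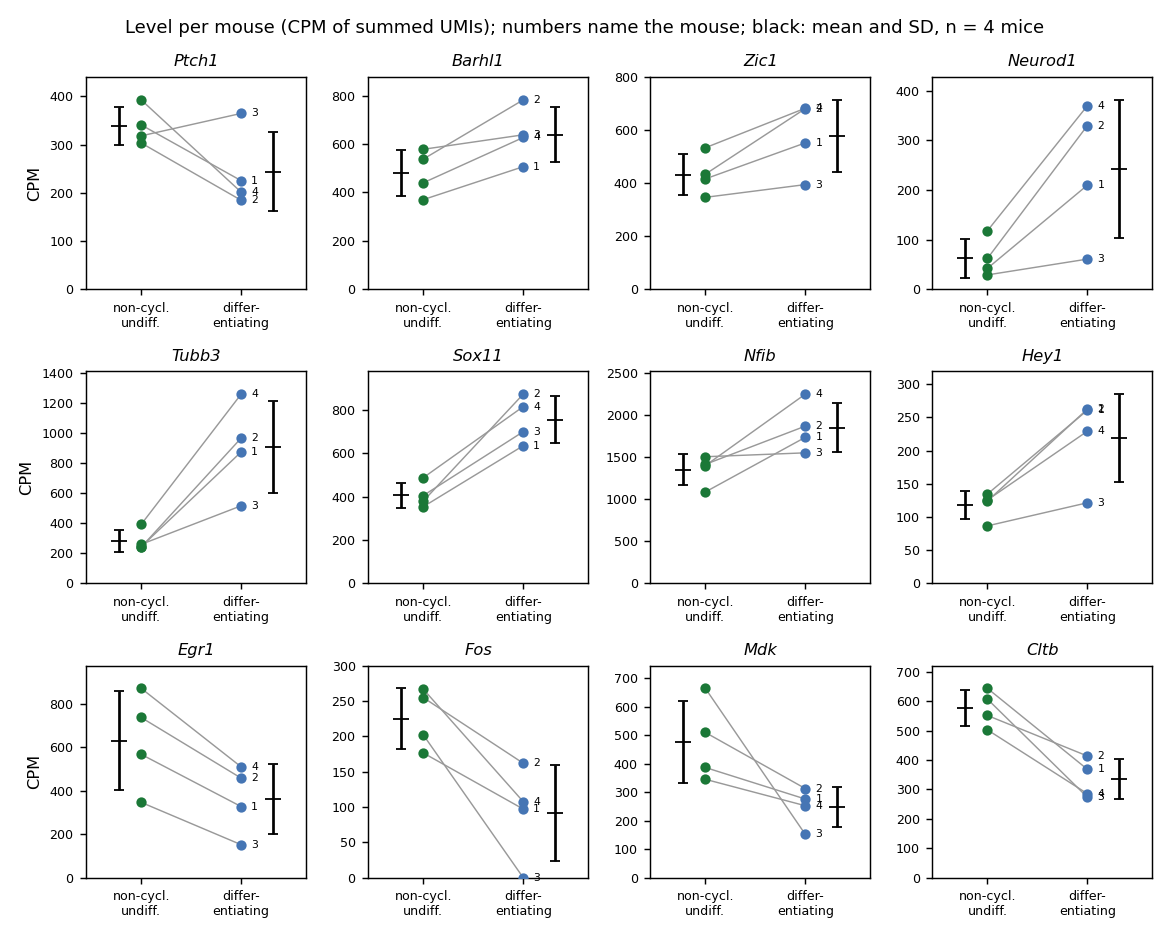
Level in CPM of 12 genes in non-cycling undifferentiated cells (left, green) and differentiating cells (right, blue) of the same 4 mice, joined by lines, with the mean and SD in black; each axis starts at 0. Neurod1, Tubb3, Sox11, Nfib and Hey1 are lower on the left in every mouse, Egr1, Fos, Mdk and Cltb are higher on the left in every mouse, and Ptch1 is higher on the left in mice 1, 2 and 4.

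Variation among the chosen cells was read from the Fano factor. Over 8216 genes with a UMI in at least 2% of chosen cells, the median Fano factor (variance over mean across cells at 2000 UMIs, median over mice, taking 0 in a mouse with no UMI of the gene) was 0.966. The highest values belonged to Ttr (98.0, from 196 and 357 in mice 1 and 4 and no UMI in mice 2 and 3, with a UMI in 4 of 199 cells), Malat1 (8.38), Car2 (3.19, 6 cells), Mt3 (3.04, 12 cells), Tmsb4x (2.97), H2afz (2.83), Enpp2 (2.68, 5 cells), Actb (2.64), Apoe (2.62), Ier2 (2.37), mt-Atp6 (2.34) and Egr1 (2.25). The 6 cells with markers of other types held 98.5% of the Enpp2 UMIs and 87.8% of the Car2 UMIs. Ier2 and Egr1 had a UMI in 108 and 112 of 199 cells.

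Cells just inside and just outside the limits had the following pooled levels, given with no test. Ptch1 was at 341 CPM in the 199 chosen cells, 388 CPM in 130 cells with 1 cycle UMI and 351 CPM in 91 cells with 2. Barhl1 was at 444 CPM in the chosen cells, 494 CPM at 1 cycle UMI and 512 CPM at 2. The 124 other S phase and G2M genes summed to 90.1 UMIs per 10000 in the chosen cells, 101 at 1 cycle UMI, 123 at 2 and 268 in all cells of 3 or more. Chosen cells with 0 neuronal UMIs (104 cells) and with 1 (95 cells) had Barhl1 at 354 and 543 CPM and Tubb3 at 228 and 335 CPM, and 80 cells with 2 neuronal UMIs had 523 and 406 CPM.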

How the data were processed

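The libraries were made with the 10x Chromium 3' kit from tumours of 4 littermates, with 2 sequencing rounds for mouse 1, per the labels' protocols. The submitters' processing notes name Cell Ranger 2.0.2, Seurat and mm10; the annotation release and strand setting are not given in the sources used here. The authors deposited whole-number UMI counts for each gene in each cell, without normalisation. Overlapping, antisense and near-identical genes may share reads.

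The members, lists and tests were chosen with earlier results of these data known. Of 5670 barcodes, 4620 passed the gene minimum and 4137 also the mitochondrial limit. For each mouse and class the UMIs of all cells were added up, and edgeR 4.0.16 (TMM, filterByExpr, quasi-likelihood, mouse as a block) was run in R 4.3.3 on each pair of classes over all genes; DESeq2 1.42.0 was an alternative. The pairing comes from the animal, since a mouse's cells share 1 library, and within mice the classes' deviations from their means correlated at 0.0813 to 0.274. The pipeline was tested on simulated counts before use. Thinning used a fixed seed (numpy 2.4.6, pandas 2.3.3, Python 3.11.15). Doublets were not called; the 2% of barcodes with most UMIs were left out as an alternative, as were other depth, RNA quality and class limits. Figures were drawn with matplotlib 3.10.9.

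Named genes were 16 chosen genes, up to 3 called genes per list with the lowest p and the same direction in 4 of 4 mice, the 8 highest and 8 lowest called genes of at least 50 CPM with that direction, the 2 most abundant genes of the S phase and G2M lists, and the 12 with the highest Fano factor. Some genes that this rule names are not reported here. Other genes were named after their values were seen. Of 610 listed symbols, 5 were not used here. Promoters and gene positions are from RefSeq on GRCm38.p6, the assembly that mm10 names.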

Additional observations from a re-analysis of the deposited data

Results flagged for a closer look

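Over 99 sets of 4 per-mouse differences, 6 had 1 mouse far from the other 3 relative to the whole range; chance gives about 1 in 20. The values are differences of log2(CPM + 10), chosen cells minus the other class. Against cycling cells, Mycn stood apart in mouse 3 (-0.82), Cdca5 in mouse 1 (-2.87) and Kifc1 in mouse 4 (-1.52). Against differentiating cells, mouse 3 stood apart for Fos (4.41), Mdk (2.06) and Gnai2 (1.93). Mouse 3 gave 15 chosen and 11 differentiating cells, the fewest of the 4 mice.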

How the results depend on the processing

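Of the called named genes, 20 of 46 against cycling cells and 6 of 29 against differentiating cells were called in all alternatives that could test them, and none changed sign. Against cycling cells, 343 genes were called; DESeq2 called 80, the fit with no replicate block 120, cells of at least 3000 UMIs 111 (mouse 3 then has no chosen cell), cells of at least 1000 UMIs 601, and chosen cells with 0 neuronal UMIs 179. Leaving out a mouse gave 121 (without mouse 1) to 389 (without mouse 3). With no filter on low counts 339 genes were called, 50 higher and 289 lower, and the median of all genes was -0.10. Without the cells rich in markers of other types, 324 were called, 304 of them among the 343. Against differentiating cells, 79 genes were called; DESeq2 called 13, no replicate block 9, at least 3000 UMIs 46, at least 1000 UMIs 200, and the chosen cells with the fewest other S and G2M UMIs 47. Leaving out a mouse gave 22 (without mouse 1) to 90 (without mouse 3), with 44 without mouse 2 and 37 without mouse 4. The cause of these moves was not tested; fewer cells, samples or tested genes enter several of them.

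The share of chosen cells (9.28%) was 16.3% in thinned cells, 3.88% at 3000 and 16.8% at 1000 UMIs, 4.77% with 0 neuronal UMIs and 4.69% with the fewest other S and G2M UMIs, and 7.80% to 10.3% with a mouse left out. The UMI difference to cycling cells was -888 to -677 and the gene difference -25.2 to -11.8 with a mouse left out. The gene difference was not run at 1000 UMIs. A limit of 3 other S and G2M UMIs left 0 chosen cells in every mouse and could not be run.

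Fold changes that changed sign were uncalled in the fit given. Against cycling cells, Ptch1 was -0.072 with no filter, -0.048 at 1000 UMIs, -0.068 against cells of at least 6 cycle UMIs and -0.17 in the chosen cells with the fewest other S and G2M UMIs, and ran from -0.14 to 0.22 with a mouse left out. Zic1 was -0.027 with no filter and -0.15 with no neuronal limit on cycling cells, and ran from -0.035 to 0.19 with a mouse left out. Ccnd1 was -0.0084 with no filter, -0.072 at 3000 UMIs and -0.0052 with the fewest other S and G2M UMIs. Ccnd2 was -0.12 with no filter, -0.11 at 3000 UMIs, -0.26 with no neuronal limit on cycling cells, -0.032 with 0 neuronal UMIs and -0.14 with the fewest other S and G2M UMIs, and ran from -0.037 to 0.082 with a mouse left out. Gli1 ran from -0.0997 to 0.025 with a mouse left out, where it could be tested. Tubb3 was -0.018 with no filter, -0.45 with no neuronal limit on cycling cells and -0.19 with 0 neuronal UMIs. Cdkn1b was -0.12 in thinned cells, -0.016 at 3000 UMIs, -0.060 with no neuronal limit on cycling cells and -0.047 with 0 neuronal UMIs. Atoh1 was -0.012 at 3000 UMIs, Cdkn1a 0.017 with 0 neuronal UMIs and Neurod1 0.016 with the fewest other S and G2M UMIs. Against differentiating cells, Atoh1 was 0.032 with no replicate block, 0.20 in thinned cells, 0.081 at 1000 UMIs, 0.16 with 0 neuronal UMIs and 0.083 with the fewest other S and G2M UMIs, and ran from -0.25 to 0.16 with a mouse left out. Ptma was 0.0059 with at least 10 UMIs in 4 sums, 0.016 with no replicate block, 0.0017 in thinned cells, 0.017 at 1000 UMIs, 0.0089 without low-Malat1 cells and 0.020 without cells of other types, and ran from -0.037 to 0.021 with a mouse left out. H2afz was -0.0050 with no filter, -0.12 with 0 neuronal UMIs and -0.26 with the fewest other S and G2M UMIs. Dut was -0.017 at 3000 UMIs and, with the fewest other S and G2M UMIs, -0.75, where Nasp was -0.53.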
